A study of Homo sapiens with 4 samples.

Results

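The extracellular matrix is the protein scaffold that cells secrete and attach to. Collagen chains assemble into triple helices inside the cell with the help of a chaperone and of hydroxylating enzymes, and lysyl oxidases cross-link the helices outside it. Glycoproteins and laminins join the scaffold to cells, matrix metalloproteinases cut it, and tissue inhibitors hold those proteases in check. Osteosarcoma arises from cells of the bone-forming lineage, whose main secreted product is a collagen-rich matrix.

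The 34 genes described here encode such proteins and were chosen by symbol for their function, out of 57428 genes with an entry on their own strand. They comprise 6 fibrillar collagen chains, 8 chains of network, beaded, anchoring and fibril-associated collagens, 6 glycoproteins, 3 laminin chains, 4 collagen chaperone and modifying enzymes, 2 cross-linking oxidases, and 5 proteases and protease inhibitors. Enough reads were present to test 33 of them. Levels between genes are compared in RPKM, which divides reads by gene length and sequencing depth, and levels of 1 gene between libraries in CPM, which divides reads by the TMM-scaled library size.

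Nascent RNA was measured by Bru-seq, in which cells take up bromouridine and the RNA made during the labelling is pulled down with an antibody. Hypertonic cells were kept in medium brought to 300 mM sodium with concentrated phosphate-buffered saline, and isotonic cells in medium of 150 mM sodium that received an equal volume of ordinary saline. Both groups were U2OS, a human osteosarcoma line, carried GFP-DCP1a (a decapping cofactor fused to a fluorescent protein) by stable overexpression under G418 selection, and were labelled with 2 mM bromouridine for 30 min with no chase. Each group had 2 libraries. The labels do not give the length of the exposure, whether the overexpressing line is a clone, or whether the replicates are separate cultures, so the p-values reflect how these particular libraries scatter, and that scatter may be technical.

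Total counts were 28367788 and 23048409 in the hypertonic libraries and 44888307 and 23410787 in the isotonic ones. Of the lineage markers, VIM, RUNX2, CDH2, PDGFRB and ALPL had reads in every library. ALPL had only 5 and 22 reads in the hypertonic libraries and 31 and 15 in the isotonic ones. SP7 had 2 and 5 reads in the hypertonic libraries and 0 in both isotonic ones, and TWIST1 had 0 in all. Summed RPKM of the mesenchymal and osteoblast markers was 34.1 and 16.4 in the hypertonic libraries and 23.4 and 16.9 in the isotonic ones, and most of it was VIM. That of the epithelial markers stayed between 0.267 and 0.667. The fibroblast markers summed to 1.56 and 1.59 RPKM in the hypertonic libraries and 1.76 and 0.855 in the isotonic ones. The blood markers summed to 0.211 and 0.146 RPKM in the hypertonic libraries and 0.0249 and 0.0287 in the isotonic ones, with CD3E at 0 in all, and the endothelial markers to 0.354 and 0.224 against 0.204 and 0.224, with more TEK in both hypertonic libraries. The part of these low levels in the results was not tested. Opposite-strand reads made up 8.6% and 6.03% of the counts of both strands in the hypertonic libraries, against 3.17% and 3.36% in the isotonic ones.

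No matrix gene passed the test between hypertonic and isotonic cells. The count was 0 of 33 at an adjusted p of 0.05 (edgeR's quasi-likelihood test with Benjamini-Hochberg adjustment over all 21238 tested genes), against a background of 0% of all tested genes. The lowest adjusted p of a matrix gene in that edgeR test was 0.487, for TGFBI. At an unadjusted p under 0.05 the count was 0 of 33 matrix genes by edgeR, against 10.9% of all tested genes. DESeq2 also called 0 of the 33, against 3.44% of all tested genes. Without hypertonic replicate 2, edgeR called 5 matrix genes (COL11A1, COL4A1, COL5A1, TGFBI and TIMP2) among 4918 genes called in all (21.4% of those tested), a share that 5 of 33 does not exceed, and the lone hypertonic library is assumed to vary like the isotonic ones. With almost no filter on low counts, when 2.45% of all genes were called, it called THBS1 alone among them, at a Benjamini-Hochberg adjusted p of 0.0427 in the edgeR test.

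The matrix genes had a median log2 fold change (hypertonic over isotonic) of -0.08, with 19 negative and 14 positive values and a range of -1.39 to 1.58. All tested genes had a median of 0.04, and 47.6% of them were negative. The better transcribed matrix genes had the lower values. At a mean RPKM of 1 or more, 13 matrix genes had 10 negative values and a median of -0.14, and the 20 tested ones below that level had a median of 0.07. Protein-coding genes in general had a median of -0.33 at or above that level (4828 genes) and 0.12 below it (9695 genes). Total-count scaling moved the median of all tested genes to 0.26 and that of the matrix genes to 0.19, so the sign of the matrix median depended on the scaling.

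The standard error was larger than the log2 fold change in 19 of the 33 genes (57.6%), against 60.9% of all tested genes. In 29 of 33 the fitted value lay within 1 log2 unit of 0, and the 4 outside that range were THBS1, COL3A1, TGFBI and COL7A1.

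**Figure D1:**
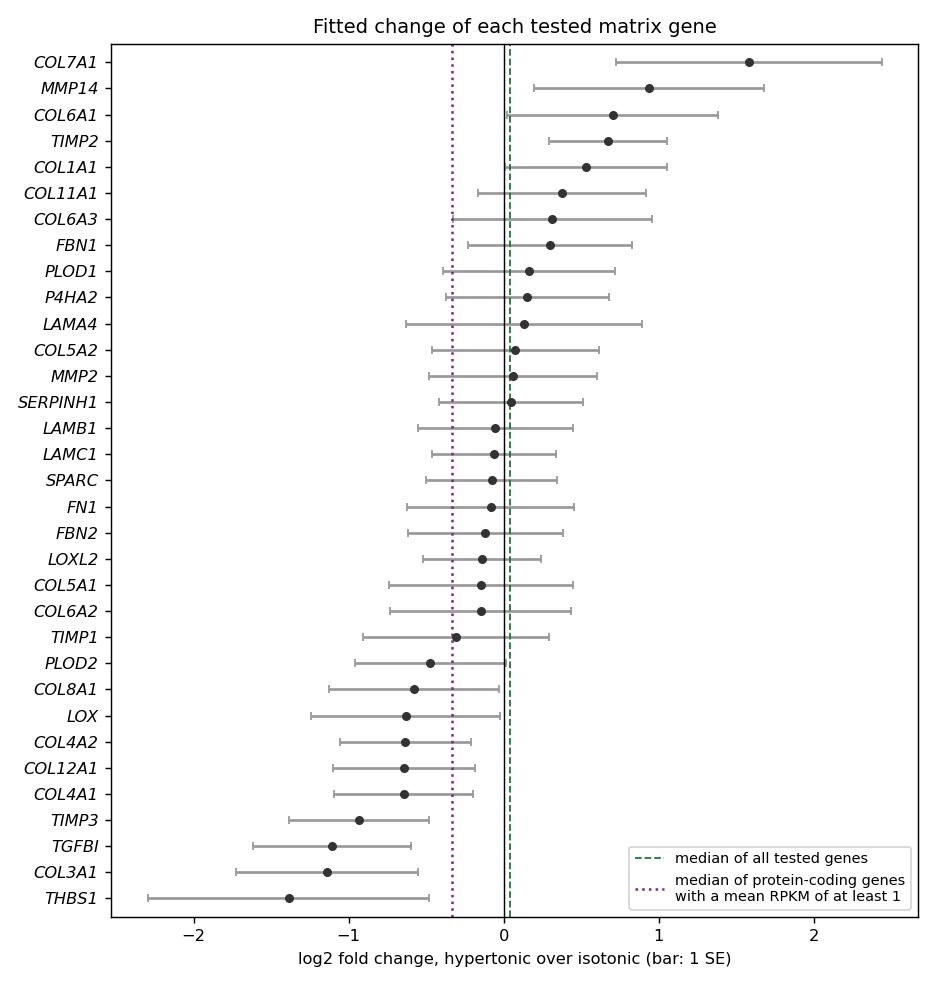
Fitted log2 fold change of each tested matrix gene, hypertonic over isotonic (x axis, bars are 1 SE, 2 libraries a group), with genes ordered by value on the y axis. The values run from -1.39 for THBS1 to 1.58 for COL7A1, the dashed line marks the median of all tested genes (0.04), and the dotted line the median of protein-coding genes with a mean RPKM of at least 1 (-0.33).

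The hypertonic pair lay wholly below the isotonic pair for 4 matrix genes (COL4A2, TGFBI, TIMP1 and TIMP3), or 12.1% of the 33, against 17.5% of all tested genes. It lay wholly above for TIMP2 alone, or 3.03%, against 22.5% of all tested genes. In 20 of the 33 genes the hypertonic libraries fell on opposite sides of the isotonic mean, which was the case for 44.9% of all tested genes and 41.9% of protein-coding genes with a mean RPKM of at least 1.

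**Figure D2:**
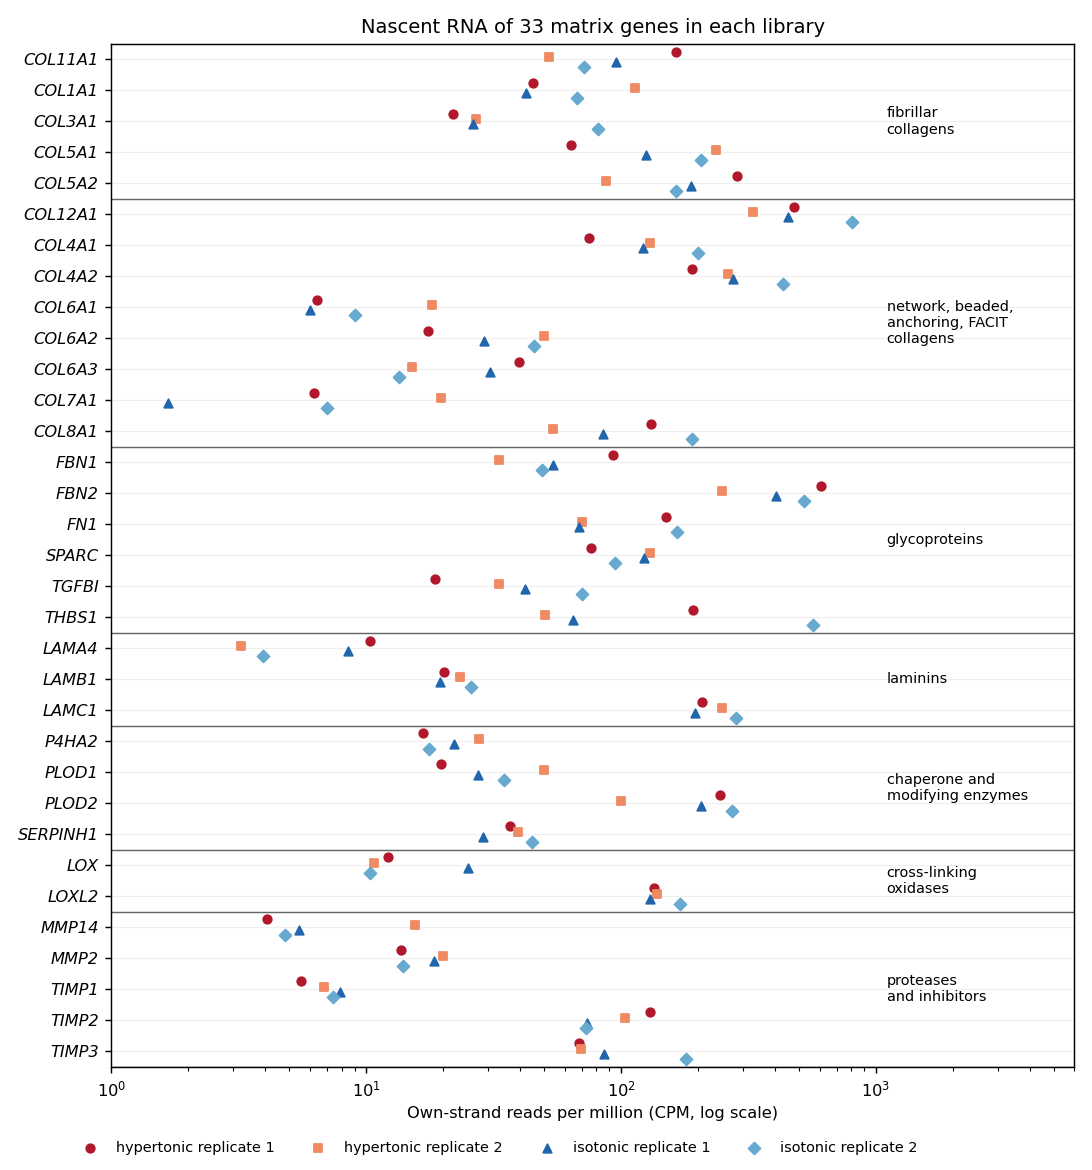
Own-strand CPM of the 33 tested matrix genes in each library (x axis, log scale), grouped by role on the y axis. Circles and squares are hypertonic replicates 1 and 2, triangles and diamonds isotonic replicates 1 and 2. The groups interleave for most genes, and TIMP2 is the gene whose hypertonic values (129.7 and 103 CPM) both lie above the isotonic ones (73.4 and 72.7 CPM).

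Among the fibrillar collagens, which form the banded fibres of connective tissue, both chains of type I collagen were measured but only one was transcribed at a level that could be tested. COL1A1 (chr17:50183289-50201632, minus strand, 2.31 RPKM in isotonic cells) had 45.0 and 113 CPM in hypertonic libraries, against 42.3 and 67.2 CPM in isotonic ones. Hypertonic replicate 1 lay between the isotonic libraries and hypertonic replicate 2 above them, so the groups overlapped, and the log2 fold change was 0.53 ± 0.52 (SE). COL1A2, its partner chain in the heterotrimer, had 0 and 2 reads in the hypertonic libraries and 0 and 1 in the isotonic ones. Its isotonic level of 0.000525 RPKM was below the filter, and no fold change is given.

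COL3A1 (chr2:188974320-189012746, plus strand), the type III chain of elastic tissues, had 21.8 and 27.0 CPM in hypertonic libraries, against 26.2 and 81.3 CPM in isotonic ones. Isotonic replicate 2 stood above the other 3 libraries, which lay close together, and the groups overlapped. The log2 fold change was -1.14 ± 0.59 (SE), and -0.14 without isotonic replicate 2. COL5A2, a type V chain, lies next to it on the minus strand (chr2:189031896-189179879), with the 3′ ends of the 2 genes 19150 bases apart. COL5A2 had 284 and 87.0 CPM in hypertonic libraries and 187 and 165 CPM in isotonic ones, so its hypertonic values lay on either side of the isotonic ones. The CPM ratio of COL5A2 to COL3A1 was 13.0 and 3.23 in hypertonic libraries and 7.13 and 2.02 in isotonic ones, higher in replicate 1 than in replicate 2 of either group and overlapping between the groups.

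COL5A1, the other type V chain, which starts fibril assembly together with type I collagen, had 63.3 and 236 CPM in hypertonic libraries, against 125 and 206 CPM in isotonic ones. The hypertonic libraries enclosed the isotonic ones, with replicate 1 lowest and replicate 2 highest of all 4. COL11A1, a minor chain of cartilage fibrils, showed the reverse order within the hypertonic group, with 164 and 52.1 CPM, against 95.2 and 71.6 CPM in isotonic libraries. The 5 tested fibrillar chains had 2 negative and 3 positive fold changes and a median of 0.08, with adjusted p between 0.553 and 0.996 (edgeR's quasi-likelihood test with Benjamini-Hochberg adjustment).

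Type IV collagen forms the sheet-like network of basement membranes, and its 2 main chains are transcribed away from each other from neighbouring starts on chromosome 13. COL4A1 spans chr13:110148963-110307149 on the minus strand and COL4A2 chr13:110307267-110513027 on the plus strand, and the gene starts lie 118 bases apart. The start regions of both genes are shown because the levels of the 2 chains kept a similar ratio in every library. The part of the start regions in that ratio was not tested. Each window holds 250 bases before the RefSeq start site and 50 from it (GRCh38.p14), 5′ to 3′ on the gene's own strand, and capitals mark the GC box, GGGCGG or its complement CCGCCC.
COL4A1, chr13:110307108-110307407, minus strand: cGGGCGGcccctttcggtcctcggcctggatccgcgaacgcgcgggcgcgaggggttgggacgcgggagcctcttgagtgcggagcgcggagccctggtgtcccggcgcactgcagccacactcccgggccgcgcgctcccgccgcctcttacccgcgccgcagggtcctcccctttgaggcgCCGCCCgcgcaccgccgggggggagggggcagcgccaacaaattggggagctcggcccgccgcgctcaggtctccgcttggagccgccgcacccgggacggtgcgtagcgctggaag
COL4A2, chr13:110307034-110307333, plus strand: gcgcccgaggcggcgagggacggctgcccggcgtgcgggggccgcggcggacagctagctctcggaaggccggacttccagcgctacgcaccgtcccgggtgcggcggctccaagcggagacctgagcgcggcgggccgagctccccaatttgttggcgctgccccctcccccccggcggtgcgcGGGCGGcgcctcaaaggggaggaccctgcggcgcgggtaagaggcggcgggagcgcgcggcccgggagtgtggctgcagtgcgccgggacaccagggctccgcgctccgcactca

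The windows of the 2 genes share 226 bases, read from opposite strands, and the RefSeq start sites lie 127 bases apart. The COL4A1 window held 2 GC boxes and the COL4A2 window 1, neither held TATAAA on either strand, and their GC contents were 76.7% and 77.7%. The COL4A2 box lies in the shared bases and is the second COL4A1 box read from the other strand, so it is counted for both genes. RefSeq windows were matched by symbol for 25 of the 34 matrix genes. GGGCGG was present on either strand in 18 of the 25 (72%), against 44.6% of 27305 windows of the same length. TATAAA was present in 2 of the 25 (8%), against 12%. A match is a description of the letters and not of binding.

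COL4A1 had 75.0 and 130.3 CPM in hypertonic libraries, against 122 and 199 CPM in isotonic ones, and the groups overlapped by a small margin. COL4A2 had 190.2 and 263 CPM in hypertonic libraries, against 274 and 429.8 CPM in isotonic ones, and here both hypertonic values lay below both isotonic ones. The log2 fold changes were -0.65 ± 0.45 (SE) for COL4A1 and -0.63 ± 0.42 (SE) for COL4A2, with adjusted p of 0.718 and 0.701 (edgeR's quasi-likelihood test with Benjamini-Hochberg adjustment). The CPM ratio of COL4A2 to COL4A1 was 2.54 and 2.02 in hypertonic libraries and 2.25 and 2.15 in isotonic ones. Each hypertonic ratio lay outside the isotonic pair, one above and one below it, and all 4 stayed near the same value. Both genes also share bases with other genes on their strand, and such bases were left out of the counts.

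Type VI collagen forms beaded filaments near cell surfaces. COL6A1 had 6.42 and 18.0 CPM in hypertonic libraries, against 6.01 and 9.03 CPM in isotonic ones, with hypertonic replicate 2 alone above the isotonic range. COL6A2 had 17.5 and 49.8 CPM in hypertonic libraries, against 29.1 and 45.4 CPM in isotonic ones, so the hypertonic values enclosed the isotonic ones. The genes lie in tandem on chromosome 21, 93046 bases apart. Their CPM ratio, COL6A2 over COL6A1, was 2.72 and 2.76 in hypertonic libraries, against 4.84 and 5.03 in isotonic ones. Within each group the replicates gave nearly the same ratio, and the groups did not overlap; the ratio was singled out after its values were seen, and with 2 libraries against 2 the smallest two-sided p that an exact permutation test can give is 0.333. COL6A3, the long chain of the trimer, lies elsewhere and had 39.7 and 15.1 CPM in hypertonic libraries, against 30.6 and 13.4 CPM in isotonic ones.

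COL12A1, a fibril-associated chain, had the highest isotonic level of all the collagens here, 3.99 RPKM. It had 477 and 329 CPM in hypertonic libraries, against 449.8 and 808 CPM in isotonic ones, and a log2 fold change of -0.64 ± 0.46 (SE). Hypertonic replicate 1 lay above isotonic replicate 1, so the groups overlapped. COL8A1, a network-forming chain, had 130.5 and 53.9 CPM in hypertonic libraries, against 85.0 and 190.5 CPM in isotonic ones.

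COL7A1, the anchoring-fibril collagen of skin, had the highest fold change of the set, 1.58 ± 0.86 (SE), at an isotonic level of 0.106 RPKM. It had 6.25 and 19.6 CPM in hypertonic libraries, against 1.67 and 7.02 CPM in isotonic ones, from 148, 499, 68 and 136 reads in the same order. Hypertonic replicate 1 lay below isotonic replicate 2, so the groups overlapped, and the fold change ran from 0.55, when hypertonic replicate 2 was left out, to 2.91, when isotonic replicate 2 was. UQCRC1, a subunit of respiratory complex III, ends 3.74 kb upstream on the same strand and had 1.02 RPKM in isotonic cells. The 8 non-fibrillar chains had 5 negative and 3 positive fold changes and a median of -0.36.

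THBS1, encoding the matricellular glycoprotein thrombospondin 1 (chr15:39581093-39599466, plus strand), averaged 13.5 RPKM in isotonic cells, the highest mean of the matrix genes. That mean rests on isotonic replicate 2, with 24.0 RPKM; replicate 1 had 3.00 RPKM, below SPARC (3.85) and COL12A1 (3.02) in the same library. It had 191 and 50.5 CPM in hypertonic libraries, against 64.8 and 566 CPM in isotonic ones. The isotonic libraries differed from each other more than the groups did, and hypertonic replicate 1 lay between them. The log2 fold change was -1.39 ± 0.91 (SE), the lowest of the set, and 0.86 without isotonic replicate 2, so that library set its direction.

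TGFBI, a secreted adhesion protein induced by TGF-beta, had 18.5 and 33.3 CPM in hypertonic libraries, against 41.8 and 70.0 CPM in isotonic ones. Both hypertonic values lay below both isotonic ones, and the log2 fold change was -1.11 ± 0.51 (SE) with an unadjusted p of 0.0582 in the edgeR test, the lowest of the set. FN1, encoding fibronectin, had 150.3 and 70.3 CPM in hypertonic libraries, against 68.2 and 165 CPM in isotonic ones. Each group held a high and a low library, and the log2 fold change was -0.08 ± 0.54 (SE). SPARC, a collagen-binding glycoprotein abundant in bone, had 75.9 and 130.2 CPM in hypertonic libraries, against 123 and 94.5 CPM in isotonic ones.

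The fibrillins, which build microfibrils, are encoded by long genes. FBN2 spans 401 kb and had 608 and 248 CPM in hypertonic libraries, against 405 and 523 CPM in isotonic ones. FBN1 spans 237 kb and had 93.0 and 33.1 CPM in hypertonic libraries, against 53.8 and 48.7 CPM in isotonic ones. In both, hypertonic replicate 1 was the highest and hypertonic replicate 2 the lowest of the 4 libraries. The 6 glycoprotein genes had 5 negative values and 1 positive and a median of -0.10.

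Laminins are the cross-shaped trimers of basement membranes, and the fitted values of their genes lay near 0. LAMC1, the common gamma chain, had 208 and 248 CPM in hypertonic libraries, against 194 and 282 CPM in isotonic ones, with the hypertonic values inside the isotonic range. LAMB1, a beta chain, had 20.3 and 23.3 CPM, against 19.5 and 25.8 CPM, and was likewise inside that range. LAMA4, an alpha chain transcribed at 0.0343 RPKM, had 10.4 and 3.22 CPM in hypertonic libraries, against 8.46 and 3.92 CPM in isotonic ones. The 3 log2 fold changes were -0.06 ± 0.40, -0.05 ± 0.50 and 0.13 ± 0.76 (SE) in that order.

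Of the proteins that fold and modify collagen in the endoplasmic reticulum, SERPINH1 (the chaperone HSP47) had 36.7 and 39.4 CPM in hypertonic libraries, against 28.7 and 44.7 CPM in isotonic ones. The hypertonic values lay inside the isotonic range, and the log2 fold change was 0.05 ± 0.46 (SE). PLOD2, a lysyl hydroxylase that sets the type of cross-link, had 245 and 100.1 CPM in hypertonic libraries, against 206 and 273 CPM in isotonic ones. Hypertonic replicate 2 stood below the other 3 libraries, and the log2 fold change was -0.47 ± 0.49 (SE). The lysyl hydroxylase PLOD1 and the prolyl hydroxylase subunit P4HA2 had log2 fold changes of 0.17 ± 0.55 and 0.15 ± 0.53 (SE).

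The oxidases that cross-link collagen and elastin both had negative values. LOX had 12.2 and 10.8 CPM in hypertonic libraries, against 25.2 and 10.4 CPM in isotonic ones, where isotonic replicate 1 stood apart from the other 3. LOXL2 had 135 and 138 CPM in hypertonic libraries, against 130.2 and 170.4 CPM in isotonic ones, with overlapping groups and a log2 fold change of -0.14 ± 0.38 (SE).

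Among the proteases, the gelatinase MMP2 had 13.7 and 20.0 CPM in hypertonic libraries, against 18.5 and 13.9 CPM in isotonic ones, and a log2 fold change of 0.06 ± 0.54 (SE). The membrane-bound MMP14 had 4.10 and 15.5 CPM in hypertonic libraries, against 5.44 and 4.80 CPM in isotonic ones. Only hypertonic replicate 2 stood above the other libraries, and the log2 fold change of 0.94 ± 0.74 (SE) became -0.33 without it. MRPL52, a mitochondrial ribosomal protein gene, ends 1.52 kb upstream of MMP14 on the same strand and had 1.36 RPKM in isotonic cells, against 0.359 RPKM for MMP14.

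The tissue inhibitors had fold changes of both signs. TIMP2 had 129.7 and 103 CPM in hypertonic libraries, against 73.4 and 72.7 CPM in isotonic ones, without overlap and with a log2 fold change of 0.67 ± 0.38 (SE). TIMP3, which stays bound to the matrix, had 68.5 and 69.7 CPM in hypertonic libraries, against 85.4 and 179 CPM in isotonic ones, without overlap and with a log2 fold change of -0.94 ± 0.45 (SE). TIMP1 had 5.53 and 6.84 CPM in hypertonic libraries, against 7.92 and 7.38 CPM in isotonic ones, again without overlap. Their adjusted p values were 0.605, 0.511 and 0.975 in that order (edgeR's quasi-likelihood test with Benjamini-Hochberg adjustment), so a higher value for TIMP2 and lower values for TIMP3 and TIMP1 were not called.

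The hypertonic libraries differed from each other along the GC content of the genes. GC content is that of the longest transcript, and the median over the matrix genes was 50.6%. Of the 17 genes at or above it, 15 had more CPM in hypertonic replicate 2 than in replicate 1. Of the 16 below it, 11 had more in replicate 1. In the GC-rich group the median log2 difference from the isotonic mean was -0.31 in hypertonic replicate 1 and 0.32 in replicate 2, and in the GC-poor group 0.01 and -0.74.

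Spearman's rho between GC content and the log2 difference of hypertonic replicate 1 minus replicate 2 was -0.77 over the 33 matrix genes. It was -0.40 over all 14523 tested protein-coding genes, and the genes within a library share its depth and preparation, so these are descriptions with no test. Gene length gave a rho of 0.41 with the same difference over the matrix genes and -0.07 with the fold change. COL1A1, COL5A1, COL6A1, COL6A2, COL7A1 and MMP14 had more in replicate 2, and FBN1, FBN2, COL5A2, COL11A1, PLOD2 and THBS1 more in replicate 1. The part of GC content in the fold changes was not tested.

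**Figure D3:**
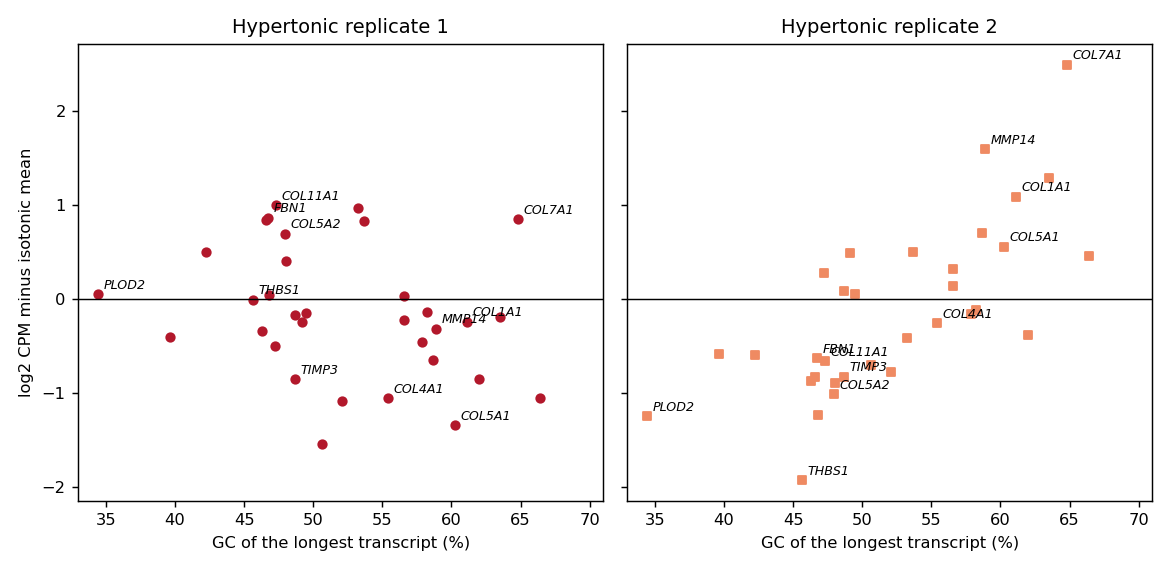
Log2 CPM of each hypertonic library minus the isotonic mean (y axis) against GC content of the longest transcript in percent (x axis), 1 point per matrix gene, replicate 1 on the left and replicate 2 on the right. Values climb with GC content in replicate 2 (Spearman's rho 0.76) and go down in replicate 1 (rho -0.34).

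Fold changes also followed the isotonic level. Spearman's rho between isotonic RPKM and log2 fold change was -0.56 over the 33 matrix genes, against -0.61 over the tested protein-coding genes. Both measures use the isotonic libraries, so they are tied to each other by construction and no test is given. THBS1, with the highest mean isotonic level, had the lowest value, and both rest on isotonic replicate 2. COL7A1, with the second lowest isotonic level of those tested, had the highest value.

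**Figure D4:**
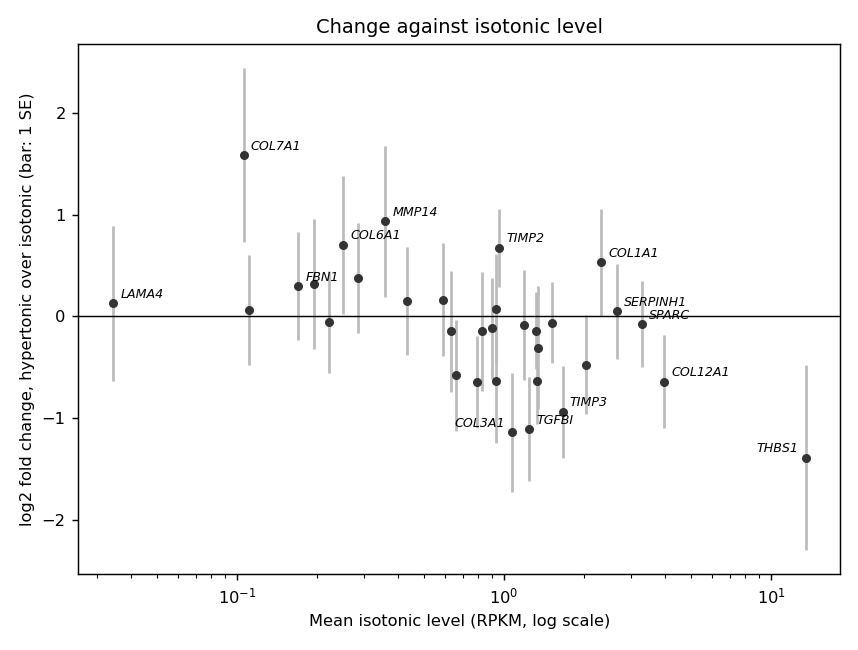
Log2 fold change, hypertonic over isotonic (y axis, bars are 1 SE), against mean isotonic level in RPKM (x axis, log scale), 1 point per tested matrix gene. THBS1 lies at 13.5 RPKM and -1.39, and COL7A1 at 0.106 RPKM and 1.58.

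Reads on the strand opposite to the matrix genes were compared with the same library sizes, in a test added after the data were seen. Opposite-strand counts could be listed for 32 of the 34 genes, TIMP1 and TIMP3 having no such entry, and 17 had enough reads to test. All 17 had a positive log2 fold change, with a median of 1.22. The same was true of most entries: 90.8% of the 9827 tested were positive, with a median of 1.31. Both hypertonic libraries lay above both isotonic ones for 10 of the 17 (58.8%), against 62.9% of all tested entries. At an adjusted p of 0.05, 2 of the 17 were higher in hypertonic cells (edgeR's quasi-likelihood test with Benjamini-Hochberg adjustment), against 19.4% of all tested entries. Of the 17, COL6A2 and LAMA4 passed the filter on low counts only with their hypertonic libraries. Their positive values are therefore not read as support for a rise. The shares of matrix genes that did not overlap or were called did not exceed those of all entries. Their positive share was above that of all entries and their median below it. Over 17 genes neither is read as particular to the matrix genes, and none of these differences was tested.

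The 2 called entries were those opposite COL3A1 and LAMA4. Opposite COL3A1 there were 35.1 and 1.65 CPM in hypertonic libraries, against 0.66 and 0.98 CPM in isotonic ones. Hypertonic replicate 1 carried most of it: there the opposite strand held 61.6% of the reads of both strands, against 5.73% in hypertonic replicate 2 and 2.46% and 1.19% in the isotonic libraries. The log2 fold change was 4.49 ± 1.12 (SE) at an adjusted p of 0.0142 (edgeR's quasi-likelihood test with Benjamini-Hochberg adjustment). Without hypertonic replicate 1 it was 1.03 and not called. The gene transcribed toward COL3A1 from that side is COL5A2, 19.15 kb away, whose own-strand level was likewise highest in hypertonic replicate 1 (284 CPM, against 87.0 CPM in hypertonic replicate 2 and 187 and 165 CPM in the isotonic libraries).

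Opposite LAMA4 there were 4.22 and 1.38 CPM in hypertonic libraries, against 0.42 and 0.31 CPM in isotonic ones, with no overlap. The log2 fold change was 2.91 ± 0.90 (SE) at an adjusted p of 0.0337 (edgeR's quasi-likelihood test with Benjamini-Hochberg adjustment), and the nearest gene transcribed toward it was FAM229B, 5.97 kb away. With 17 and 6 isotonic reads, the LAMA4 entry passed the filter on low counts only with its hypertonic libraries. Its p-value and call are therefore not read as support for a rise. Whether the COL3A1 and LAMA4 entries were called depended on which libraries were kept, and so did the number called over all entries. The LAMA4 value was 3.15 without isotonic replicate 1, 2.73 without isotonic replicate 2 and 1.88 without hypertonic replicate 1. The COL3A1 value without an isotonic library was 4.22 or 4.78.

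FN1 had the most opposite-strand reads, 132 and 44.8 CPM in hypertonic libraries, against 26.3 and 36.5 CPM in isotonic ones. Both hypertonic values lay above both isotonic ones, and the log2 fold change of 1.49 ± 0.83 (SE) was not called. ATIC, a purine synthesis enzyme, is transcribed toward FN1 from 10.7 kb away. LAMB1 followed with 51.4 and 35.3 CPM in hypertonic libraries, against 24.0 and 34.1 CPM in isotonic ones, and faces DLD, a subunit of mitochondrial dehydrogenases, across 2.6 kb. LOX had 47.4 and 13.2 CPM, against 8.80 and 17.3 CPM, so its groups overlapped. The opposite strand of LAMB1 held 71.7% and 60.3% of the reads of both strands in hypertonic libraries, against 55.2% and 56.9% in isotonic ones. For LOX these shares were 79.5% and 55.1%, against 25.9% and 62.6%. A majority on the opposite strand was thus not particular to COL3A1.

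COL12A1, with too few opposite-strand reads to test, had 2 and 3 in hypertonic libraries and 6 and 5 in isotonic ones. Beside these it had 11290, 8384, 18342 and 15650 own-strand reads in the same order. Its opposite-strand CPM was lower in both hypertonic libraries than in either isotonic one. That order held for 0 of the 17 tested genes and for 181 of all 9827 tested entries. With so few reads it is not read as a result about COL12A1. All 10 genes with a facing gene within 25 kb had enough opposite-strand reads to test, against 7 of the other 22. Their summed opposite-strand CPM was 245 and 97.5 in hypertonic libraries, against 56.1 and 83.7 in isotonic ones. For the other 22 it was 67.5 and 33.4 in hypertonic libraries, against 17.4 and 28.2 in isotonic ones. FN1 and LAMB1 made up most of the first sum in every library, and COL3A1 added 35.1 CPM in hypertonic replicate 1. LOX gave 47.4 and 13.2 CPM of the second sum in hypertonic libraries and 8.80 and 17.3 CPM in isotonic ones. In hypertonic replicate 2 that was less than the rest of the sum. Without these genes the sums were 26.5 and 15.8 in hypertonic libraries, against 5.15 and 12.1 in isotonic ones, for the remaining 7 with a facing gene. They were 20.1 and 20.2, against 8.63 and 10.8, for the remaining 21. The distance of 25 kb was chosen after the values were seen. The labels mention strand-specific preparation for certain samples without naming them. Whether the higher opposite-strand shares of the hypertonic libraries (8.6% and 6.03%, against 3.17% and 3.36%) follow the preparation or the treatment cannot be told apart, and this holds for the 17 positive values and both calls.

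**Figure D5:**
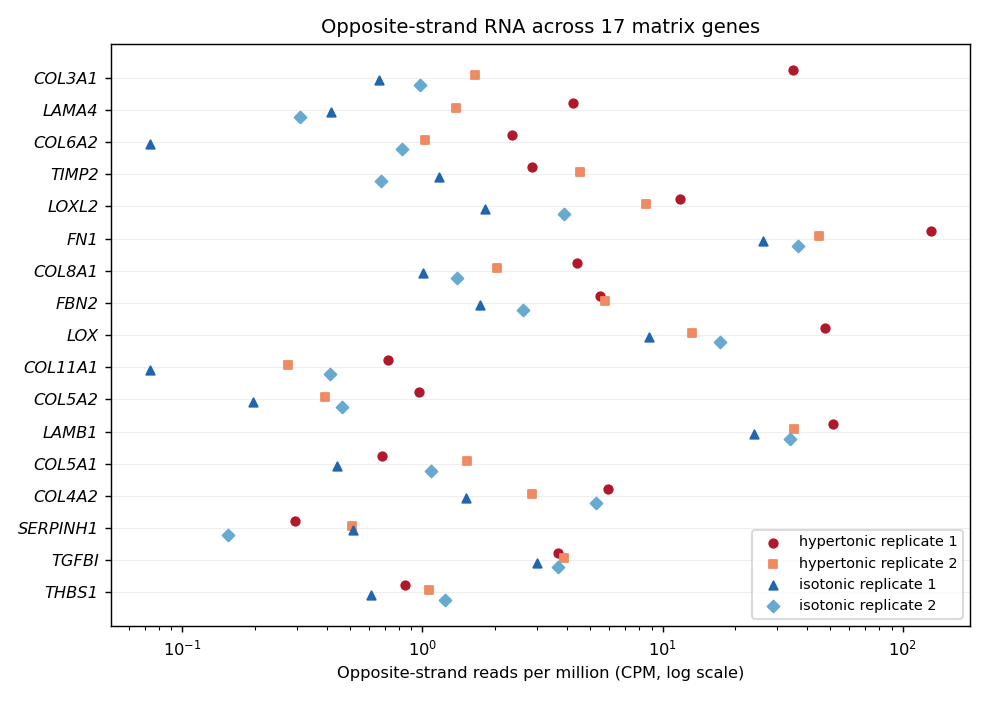
Opposite-strand CPM across the 17 matrix genes with enough such reads (x axis, log scale), ordered by log2 fold change with the highest on top. Circles and squares are hypertonic replicates 1 and 2, triangles and diamonds isotonic replicates 1 and 2. COL3A1 in hypertonic replicate 1 stands at 35.1 CPM, apart from 1.65, 0.66 and 0.98 CPM in the other libraries.

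A wider list of 81 further matrix, integrin and TGF-beta genes was read from the same fit, and 72 of them were tested. None passed at an adjusted p of 0.05 (0 of 72, edgeR's quasi-likelihood test with Benjamini-Hochberg adjustment), 3 had an unadjusted p under 0.05 in that test (COL9A3, COL21A1 and ITGB1), and DESeq2 called 1, COL9A3. Over all tested genes those shares were 10.9% and 3.44%, and the list did not exceed them. COL9A3 passed the filter on low counts only through its hypertonic libraries. Both hypertonic libraries had less CPM than either isotonic one in 11 of the 72 (15.3%, against 17.5% of all tested genes) and more in 8 (11.1%, against 22.5%). The median log2 fold change was 0.05, with 30 negative and 42 positive values. At a mean RPKM of 1 or more, 22 of them had 15 negative values and a median of -0.23, beside -0.33 for protein-coding genes of that level.

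The lowest values among these better transcribed genes belonged to CCN2 (listed as CTGF), a connective tissue growth factor, to the laminin chain LAMB3 and to the integrin ITGB1. CCN2 had 188 and 21.3 CPM in hypertonic libraries, against 83.6 and 599 CPM in isotonic ones, the same order of libraries as THBS1. Its log2 fold change was -1.70 ± 1.03 (SE) and that of LAMB3 -1.59 ± 0.78 (SE), and without isotonic replicate 2 they were 0.29 and 0.26. ITGB1, the beta chain shared by most collagen, laminin and fibronectin receptors, had 417 and 442 CPM in hypertonic libraries, against 679.5 and 1011 CPM in isotonic ones. Its groups did not overlap, its log2 fold change was -0.98 ± 0.42 (SE), and its adjusted p was 0.448 (edgeR's quasi-likelihood test with Benjamini-Hochberg adjustment).

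The highest values of that level belonged to P4HA1, a prolyl hydroxylase subunit, to the integrin ITGA3 and to the cytokine TGFB1, with log2 fold changes of 0.48 ± 0.47, 0.43 ± 0.58 and 0.42 ± 0.47 (SE). TGFB2, a cytokine of the same family, had 1095 and 753 CPM in hypertonic libraries, against 1169 and 2452 CPM in isotonic ones, without overlap and with a log2 fold change of -0.97 ± 0.51 (SE).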

How the data were processed

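For each library the authors deposited an expected count and an RPKM value per gene and strand, not all counts being whole. The tables have no header, so both units were read from the values: among counts under 50, 0 left aside, 74 to 79.6% were whole to within 0.01. A further deposited column, of another unit, holds the length counted per entry. Per the submitters' processing notes, bedtools 2.16.2, STAR 2.5.3a, Bowtie2 2.3.3 and CASAVA 1.8.2 were used on GRCh38 (hg38), with no role given. Counter and annotation are not given in the sources used here.

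Of 105538 entries, those on a gene's own strand (GENCODE 29, matched by Ensembl identifier) were used, 57428 in all. The 48 entries that pool bases shared by genes of a strand took 3.11 to 3.48% of reads and were not used, nor were 259 genes without a match (0.165 to 0.209%). The matrix genes and lists were chosen with earlier results of these data known.

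These counts, rounded to whole numbers, went into edgeR 4.0.16 under R 4.3.3 (TMM factors 0.947, 1.22, 0.974 and 0.887, default filter, quasi-likelihood test, Benjamini-Hochberg adjustment at 0.05 over 21238 genes), on the 2 hypertonic and 2 isotonic libraries without a covariate. Standard errors are the size of the log2 fold change divided by the square root of F. Opposite-strand entries were tested apart with the same effective library sizes. Alternatives were RLE, total-count and upper-quartile scaling, no filter beyond a total count of 1, DESeq2 1.42.0, a replicate block, and leaving out each library. The statistics were tested on simulated data. The simulated scatter was set by hand and common to all genes, not taken from these libraries, so no conclusion about these data is drawn from that run. No molecular identifiers are named, so counts are of reads. Genes given with values in each library were all those at an unadjusted p under 0.05, the 3 lowest and 3 highest by log2 fold change, and a set list. Values of other matrix genes were added to these, and 1 gene of the wider list is counted but not reported here. Coordinates are GRCh38, counted from 1. Start-region sequences are from RefSeq.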

Additional observations from a re-analysis of the deposited data

How the results depend on the processing

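The count of matrix genes at an unadjusted p under 0.05 was 0. It was 1 with RLE, with total-count scaling and with a replicate block, 5 without a filter and 2 with DESeq2. The shares of all tested genes at that p are not given for the alternatives, so these counts are not read as results about the matrix genes. The count called was 0, and was 1 without a filter, when 2.45% of all tested genes were called. The median log2 fold change was -0.08, and 0.19 with total-count scaling, 0.12 with upper-quartile scaling, -0.13 without a filter, -0.14 for genes with a mean RPKM of at least 1, and -0.34 to 0.040 without 1 library. Both hypertonic libraries below both isotonic ones held for 4 genes, and for 1 with total-count and 2 with upper-quartile scaling. Both above held for 1, and for 2 with upper-quartile scaling. Without 1 library, where fewer values must be ordered, these counts were 6 to 15 and 2 to 11. Shares of all tested genes are not given for these alternatives, so the counts are not read as results about the matrix genes. The wider list's median was 0.05, and 0.32 with total-count scaling and -0.21 to 0.26 without 1 library. Its count of calls was 0, and was 4 without a filter, 1 with DESeq2, 1 with a replicate block and 0 to 8 without 1 library. Opposite-strand calls numbered 2, and 4 with total-count scaling and 0 to 7 without 1 library. Over all tested opposite-strand entries, 1906 of 9827 were called in the main fit and 3105 of 9815 with total-count scaling. The number called over all entries also changed when 1 library was left out. The opposite-strand counts are therefore not read as results about the matrix genes. Over all tested own-strand genes, 916 of 37347 (2.45%) were called without a filter. The wider list's 4 of 81 lay above that share, a difference that was not tested. DESeq2 called 731 of 21238 genes (3.44%), and the replicate block 384 of 21238. The number of own-strand genes called also changed when 1 library was left out. The wider list's counts of calls are likewise not read as results about that list.

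Same-numbered libraries deviated from their group means with a correlation of 0.0247 over 21238 genes, so the numbers were not taken to pair them. The replicate block gave a median of -0.12 for the matrix genes, left their count called at 0, brought the calls over all genes to 384, and gave COL5A2 a log2 fold change of -0.16, against 0.077 without the block. Total-count and upper-quartile scaling moved the median of all tested genes to 0.26 and 0.23. Values then changed sign, to 0.19 and 0.017 for COL5A1, 0.17 and 0.021 for COL6A2, 0.10 and 0.12 for FN1, 0.19 and 0.12 for LAMC1, 0.18 and 0.10 for SPARC, 0.034 and 0.093 for FBN2, 0.19 and 0.13 for LAMB1, and 0.092 and 0.050 for LOXL2. Without a filter SERPINH1 came to -0.010.

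Without 1 library, 28 of the 42 genes followed through the alternatives (all 33 tested matrix genes and 9 of the wider list) changed sign. The log2 fold changes then ran from -0.29 to 1.02 for COL1A1, -1.39 to 0.48 for COL5A1, -0.23 to 1.23 for COL6A1, -1.09 to 0.39 for COL6A2, -4.03 to 0.29 for CTGF, -0.66 to 0.86 for FBN1, -0.77 to 0.65 for FN1, -0.48 to 0.95 for ITGA3, -2.43 to 0.26 for LAMB3 and -0.34 to 0.19 for LAMC1. They ran from -1.17 to 0.12 for LOX, -0.33 to 1.56 for MMP14, -0.24 to 0.27 for MMP2, -0.28 to 0.96 for P4HA1, -1.29 to 0.030 for PLOD2, -0.26 to 0.36 for SERPINH1, -0.52 to 0.23 for SPARC and -2.68 to 0.86 for THBS1. For the genes added to this check after the data were seen they ran from -0.71 to 0.97 for COL11A1, -1.05 to 0.69 for COL5A2, -0.58 to 1.01 for COL6A3, -1.39 to 0.078 for COL8A1, -0.94 to 0.39 for FBN2, -0.99 to 0.78 for LAMA4, -0.28 to 0.12 for LAMB1, -0.35 to 0.027 for LOXL2, -0.27 to 0.44 for P4HA2 and -0.66 to 0.65 for PLOD1. The 14 of the 42 that kept their sign under every alternative run were COL12A1, COL21A1, COL3A1, COL4A1, COL4A2, COL7A1, COL9A3, ITGB1, TGFB1, TGFB2, TGFBI, TIMP1, TIMP2 and TIMP3. The cause of these shifts was not tested. With 2 libraries a group, differences of 1 log2 unit did not pass the test in these genes.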

Other observations

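On the wider list, 2 collagens outside the set had unadjusted p under 0.05 in the edgeR test without passing the adjustment, and they are named for that after their values were seen. COL9A3, a cartilage collagen chain, had 4.39 and 2.04 CPM in hypertonic libraries, against 0 and 0.206 CPM in isotonic ones (104 and 52 reads, against 0 and 4). It passed the filter on low counts only through the hypertonic libraries. Its p-value and its DESeq2 call are therefore not read as support for a rise. COL21A1, a fibril-associated collagen, had 40.4 and 4.01 CPM in hypertonic libraries, against 3.61 and 4.13 CPM in isotonic ones, so the difference lay in hypertonic replicate 1. Their Benjamini-Hochberg adjusted p values were 0.216 and 0.376 in edgeR's quasi-likelihood test. OGFR ends 3.06 kb upstream of COL9A3 on the same strand, and its part in the COL9A3 reads was not tested.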
